A study of Mus musculus with 30 samples.

Results

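The 9 genes described here, Fos, Fosb, Fosl2, Jun, Junb, Jund, Egr1, Atf3 and Dusp1, were taken by symbol from a table of 21652 genes of mouse adipose tissue. Each symbol matched 1 row, and all 9 passed the filter on low counts in every comparison. PolyA RNA was sequenced from 2 fat depots of male C57BL/6J mice aged 7 to 8 weeks and housed 5 to a cage, the inguinal white depot (iWAT) and the brown depot (BAT). Each depot had 3 groups of 5 libraries. Those groups were labelled 22 °C, 6 h at 6 °C and 24 h at 6 °C, and the housing notes give the room as 24 ± 2 °C. No group carried a genetic change or a drug. The labels do not say that libraries of a group came from separate mice, so the p-values below measure the spread between libraries, which may be in part technical. The question was how these genes differed with cold in each depot, and whether the depots differed.

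Immediate early genes are transcribed within minutes of a stimulus, without new protein synthesis, and their mRNAs are short-lived. Proteins of the Fos family pair with proteins of the Jun family to form AP-1, a transcription factor, and Jun proteins can also pair with each other. Egr1 is a zinc finger transcription factor induced through MAP kinases, Atf3 is a stress-induced factor of the ATF/CREB family, and Dusp1 is a phosphatase that switches MAP kinases off. In brown fat, cold acts through noradrenaline and cAMP, a pathway that reaches genes through the factor CREB and its binding sites, the cAMP response elements.

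Promoters are printed for the 4 genes that were higher after cold in BAT at either time, and for Fos, the gene that gives AP-1 its best known subunit. The sequences are the 250 bases before each gene's start, from RefSeq (GRCm38.p6), written 5′ to 3′ along the gene's own strand. Capitals mark the short cAMP response site TGACG (or CGTCA where it lies on the opposite strand), the full cAMP response element TGACGTCA, which contains the short site on both strands, and the TATA box TATAAA.
Dusp1 (chr17:26508473-26508722, minus strand): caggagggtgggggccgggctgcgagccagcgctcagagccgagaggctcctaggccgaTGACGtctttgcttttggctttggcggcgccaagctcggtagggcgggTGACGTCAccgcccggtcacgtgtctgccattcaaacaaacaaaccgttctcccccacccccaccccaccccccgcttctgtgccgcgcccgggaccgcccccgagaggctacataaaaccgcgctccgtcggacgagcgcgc
Atf3 (chr1:191183334-191183583, minus strand): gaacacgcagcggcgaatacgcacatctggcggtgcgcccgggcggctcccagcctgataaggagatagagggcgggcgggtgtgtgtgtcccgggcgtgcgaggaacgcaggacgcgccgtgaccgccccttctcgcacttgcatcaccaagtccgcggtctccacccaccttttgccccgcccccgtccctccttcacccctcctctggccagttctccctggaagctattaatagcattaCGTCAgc
Junb (chr8:84978749-84978998, minus strand): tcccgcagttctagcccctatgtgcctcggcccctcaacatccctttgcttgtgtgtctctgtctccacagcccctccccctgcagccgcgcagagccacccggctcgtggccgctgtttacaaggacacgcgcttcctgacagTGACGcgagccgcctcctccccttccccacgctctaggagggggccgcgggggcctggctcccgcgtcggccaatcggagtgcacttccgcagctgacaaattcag
Fosl2 (chr5:32136222-32136471, plus strand): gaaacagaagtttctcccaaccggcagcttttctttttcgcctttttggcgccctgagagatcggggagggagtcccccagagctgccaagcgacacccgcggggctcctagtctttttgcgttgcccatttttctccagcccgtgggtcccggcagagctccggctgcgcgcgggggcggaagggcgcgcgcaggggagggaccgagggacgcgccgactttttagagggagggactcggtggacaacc
Fos (chr12:85473640-85473889, plus strand): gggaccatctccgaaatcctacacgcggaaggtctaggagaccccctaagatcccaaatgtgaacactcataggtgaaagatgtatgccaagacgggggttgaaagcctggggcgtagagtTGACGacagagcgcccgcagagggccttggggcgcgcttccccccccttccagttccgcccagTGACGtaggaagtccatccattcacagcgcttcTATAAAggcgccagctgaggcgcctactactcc

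Both strands were searched from 250 bases before to 50 after the start in the 8 members that had a promoter in the table, which were all but Egr1. The full element TGACGTCA was found in Dusp1 alone, from -143 to -136, and 1.79% of the 32851 promoters in the table held it. Dusp1 held a further short site at -191. Short sites without the full element stood in Fos (at -129 and -66), Fosb (at -60), Junb (at -106) and Atf3 (at -7, opposite strand), and 20.8% of all promoters held 1 or more. Fosl2, Jun and Jund held none. TATAAA (13.6% of all promoters) lay at -33 in Fos, and in Junb just past the start, from 1 to 6. CCAAT, present in 37.4% of all promoters, was matched in Jun at -65, in Junb at -36 and in Atf3 at 6 on the opposite strand. No match to the AP-1 site TGACTCA (5.20% of all promoters), to the EGR site GCGTGGGCG (0.612%) or to the serum response element, the CArG box (1.63%), was found in these 8 windows. Bases outside the windows were not searched, so sites farther from the start may exist in these genes.

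Library totals were 25.3 to 41 M assigned counts (M, 1e6). In BAT the skeletal muscle markers (10 genes) summed to between 2.19 and 8453 CPM by library. In iWAT 1 library at 22 °C, replicate 2, reached 3494 CPM of them, while the other 14 held 1.96 to 7.88. The tissue labels matched their markers: the brown adipocyte list (12 genes) summed to 182 to 1352 CPM in iWAT at 22 °C and to 13664 to 17421 in BAT, and the adipocyte list (8 genes) held 14607 CPM or more in every library. In iWAT after 24 h, replicate 5 stood apart in Fos, Fosb and Egr1, and results that rest on it are given with and without it. CPM are counts per M of the library's total scaled by TMM, a factor that aligns most genes between libraries.

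**Figure D1:**
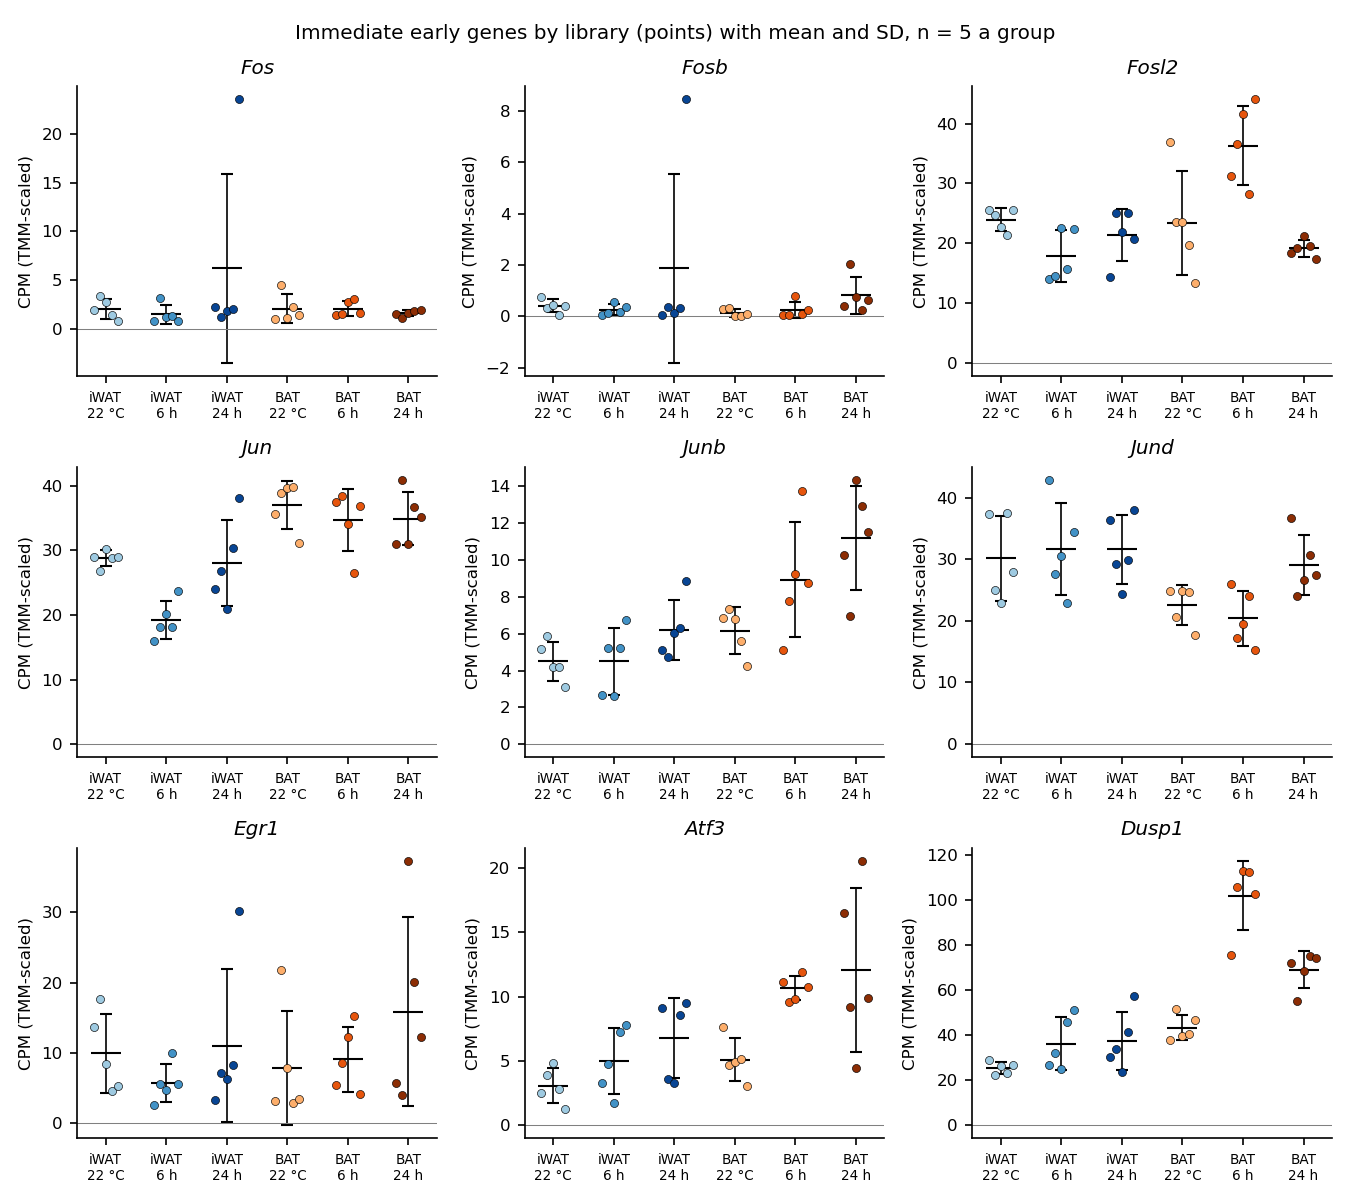
Each panel plots 1 gene in CPM (vertical axis, TMM-scaled) in the 6 groups (horizontal axis), with a point per library and bars for mean and SD (n = 5). Dusp1 in BAT was 38.0 to 51.7 CPM at 22 °C and 75.6 to 113 after 6 h, and 1 iWAT library at 24 h held 23.6 CPM of Fos where the others of its group held 1.24 to 2.25.

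Between genes, levels were compared in FPKM, which is per kilobase of gene length. Jund, a subunit known for steady expression, had the highest level in iWAT at 22 °C, 23.5 ± 4.82 FPKM (mean ± SD, n = 5). Jun followed at 11.8 ± 0.639 and Dusp1 at 10.1 ± 1.30 FPKM, and the libraries of these 2 overlapped. The next, Fosl2, stood at 3.25 ± 0.402 FPKM, below every Dusp1 library. From there the order was Egr1 (2.94 ± 1.77), Junb (2.57 ± 0.698), Atf3 (1.86 ± 0.845) and Fos (1.14 ± 0.612), and each overlapped its neighbour. Fosb was the lowest, at 0.0861 ± 0.0549 FPKM.

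In BAT at 22 °C, Jund (11.7 ± 1.74 FPKM), Dusp1 (11.3 ± 1.5) and Jun (10 ± 1.11) overlapped at the top. The other 6 members were at 2.30 ± 0.478 FPKM (Junb) or less, and Fosb again came last at 0.0193 ± 0.0210. After 6 h in the cold, Dusp1 led at 25.7 ± 4.90 FPKM with no overlap with Jund, then at 10.1 ± 1.80. After 24 h Dusp1 (17.8 ± 2.36 FPKM) and Jund (14.8 ± 2.30) overlapped again. In iWAT Jund kept the first place after 6 h (20.8 ± 4.91) and after 24 h (21.8 ± 3.49 FPKM).

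Within the Fos family, Fosl2, a long-lived member also called Fra-2, supplied most of the summed FPKM. Its share was 73.7 ± 9.57% in iWAT at 22 °C and 73.4 ± 13.7% in BAT (SD, n = 5). After 6 h of cold it was 74.1 ± 13.0% in iWAT and 80.3 ± 7.15% in BAT, and after 24 h in BAT it was 70.9 ± 2.91%. In iWAT replicate 5 at 24 h Fosl2 made up 15.9%, Fos 74.1% and Fosb 10%. In the Jun family Jund held 61.6 ± 5.42% of the summed FPKM in iWAT at 22 °C and 48.6 ± 2.55% in BAT, with no overlap. Jun held 31.6 ± 4.63% and 41.9 ± 2.30%. Junb, an AP-1 subunit that can oppose Jun, took the smallest share in every group, from 6.83 ± 1.91% in iWAT at 22 °C to 14.6 ± 3.62% in BAT after 24 h.

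**Figure D2:**
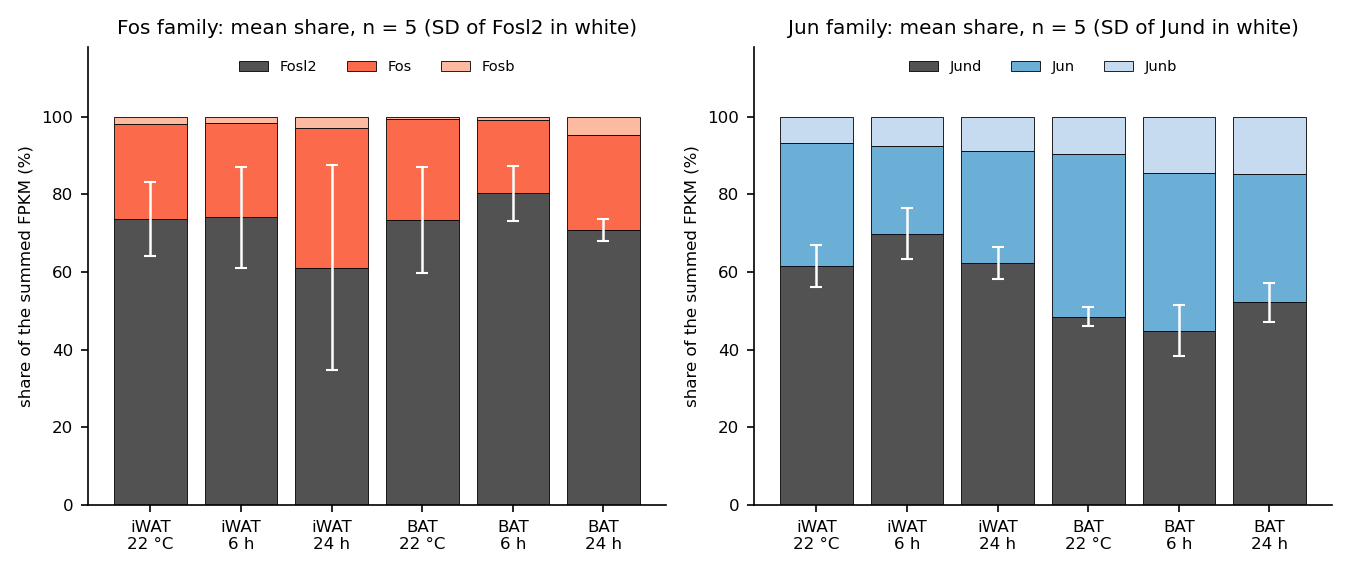
Stacked bars give the mean share of the summed FPKM (vertical axis, %) that each Fos family member (left) and Jun family member (right) held in the 6 groups (n = 5 each), with the SD of Fosl2 and of Jund in white. Fosl2 was the largest part of the Fos family in every group, from 61.2% to 80.3%, and Jund was the largest part of the Jun family, from 44.9% to 69.8%.

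After 6 h at 6 °C, BAT held more mRNA of Dusp1, Atf3 and Fosl2, while Fos, Fosb and Egr1 showed no called difference. No library of either depot was taken earlier in the cold, so changes that began and ended before 6 h could not be seen. Of the 9 members, 3 were called higher and none lower by edgeR's quasi-likelihood test (adjusted p under 0.05 over all 13090 genes tested), and 22.7% of all genes were called, 12.5% of them higher and 10.2% lower as shares of the genes tested. The median log2 fold change was 0.52 over the members and -0.01 over all genes.

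Dusp1 (ENSMUSG00000024190) stood at 38.0, 51.7, 39.7, 40.6 and 46.8 CPM in the 5 BAT libraries at 22 °C, and at 75.6, 106, 113, 113 and 103 CPM after 6 h. Every cold library lay above every control, and replicate 1 was the lowest of the cold group. This was a 2.33-fold rise, or 1.22 ± 0.12 on the log2 scale (± is an approximate SE for log2 fold changes, adjusted p = 5.44e-06 by edgeR). The gene Ergic1, which codes for a protein of the early secretory pathway, lies over Dusp1 on the opposite strand in the GRCm38 annotation. Ergic1 went from 110 ± 15.5 to 257 ± 69.1 CPM (log2 1.21 ± 0.14, adjusted p = 2.48e-05 by edgeR). Whether reads were counted by strand is not stated, so reads of the 2 genes may not be told apart, and the part of either in the other's rise was not tested.

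Atf3 (ENSMUSG00000026628) was at 7.64, 4.70, 4.95, 5.18 and 3.06 CPM at 22 °C and at 11.1, 9.62, 9.83, 11.9 and 10.8 CPM after 6 h in BAT. The groups did not overlap, as was so for 16.0% of all genes tested in this comparison. On the log2 scale the rise was 1.05 ± 0.31 (adjusted p = 0.0219 by edgeR). Adjusted p was 0.0543 without BAT replicate 5 at 22 °C, the lowest library, and 0.0567 with all 30 libraries in the fit.

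Fosl2 (ENSMUSG00000029135) was at 36.9, 23.6, 23.6, 19.7 and 13.3 CPM at 22 °C and at 31.3, 36.5, 41.5, 28.3 and 44.1 CPM after 6 h in BAT. Replicate 1 at 22 °C lay among the cold libraries, and the other 4 controls lay below them. The rise of 0.62 ± 0.19 in log2 was called (adjusted p = 0.0282 by edgeR), and the call was lost without any 1 of replicates 3, 4 and 5 at 22 °C or 2, 3 and 5 at 6 h (adjusted p = 0.0507 to 0.0836), and with only the 10 libraries compared in the fit (0.0538).

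Of the remaining members in BAT at 6 h, Junb had a log2 fold change of 0.52 ± 0.23 (adjusted p = 0.119 by edgeR; 0.0353 without replicate 1 at 6 h). Fos (ENSMUSG00000021250), the founding gene of the family, was 0.975 to 4.52 CPM at 22 °C and 1.44 to 3.01 after 6 h, with a log2 fold change of 0.01 ± 0.38. Egr1 (ENSMUSG00000038418) gave 0.21 ± 0.63, Fosb 0.88 ± 0.95, Jun -0.11 ± 0.11 and Jund -0.16 ± 0.15 on the log2 scale, none of them called. The skeletal muscle markers summed to 251 to 8453 CPM in BAT at 22 °C and to 9.45 to 1489 after 6 h (1 of 10 called lower). None of these 10 markers was at 0 in a whole group, and the part of muscle in the members' values was not tested. In bulk tissue, fewer cells of a type and less RNA per cell cannot be told apart.

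**Figure D3:**
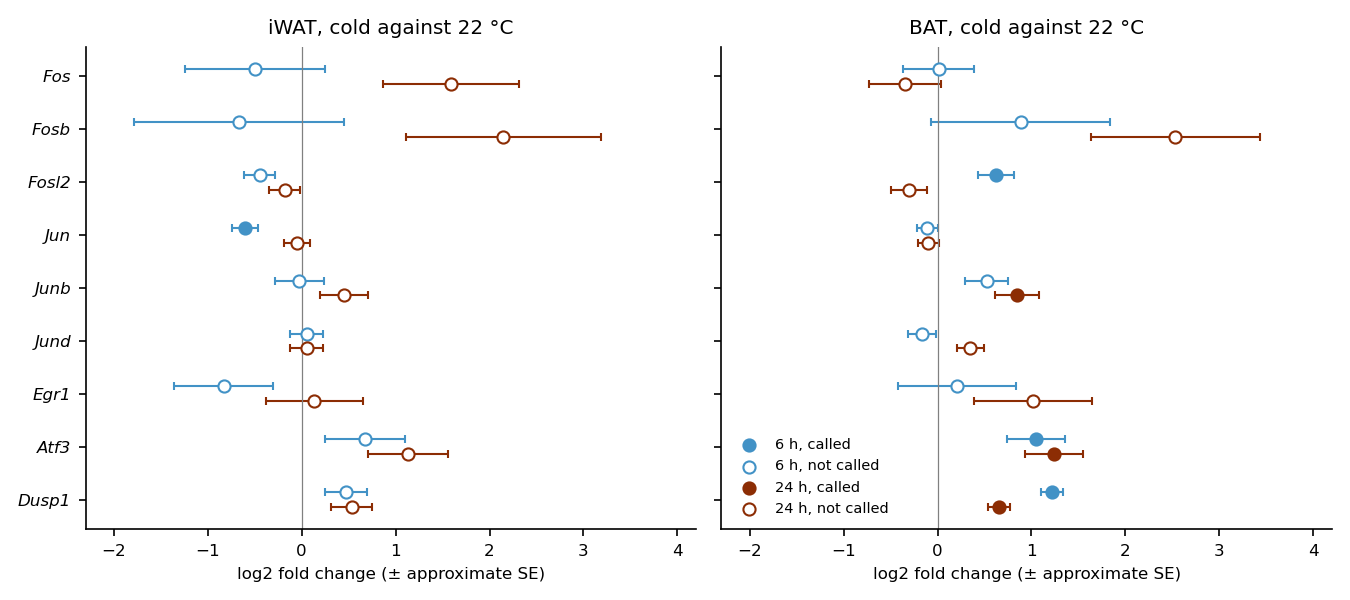
Log2 fold changes of the 9 members (horizontal axis, ± approximate SE) for 6 h (blue) and 24 h (red-brown) of cold against 22 °C in iWAT (left) and BAT (right), with filled points for adjusted p under 0.05 by edgeR. In BAT Dusp1 and Atf3 were called at both times, Fosl2 at 6 h and Junb at 24 h, and in iWAT Jun at 6 h was the only one called.

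After 24 h at 6 °C, Dusp1 and Atf3 were still higher in BAT than at 22 °C and Junb was too, while Fosl2 was back in the range of the controls. Of the 9 members 3 were called higher and none lower by edgeR, and 23.1% of all genes tested were called (12.8% higher and 10.4% lower). The median log2 fold change was 0.66 over the members and -0.01 over all genes. The comparisons at 6 h and 24 h share their 5 control libraries.

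Dusp1 was at 72.3, 55.1, 68.7, 75.2 and 74.4 CPM after 24 h. All 5 lay above the highest control, 51.7 CPM, and below the lowest library at 6 h, 75.6. Dusp1 was the 1 member without overlap against 22 °C, where 18.2% of all genes had none. Against 22 °C the log2 fold change was 0.66 ± 0.12 (adjusted p = 0.00078 by edgeR) and against 6 h it was -0.56 ± 0.12 (adjusted p = 0.00513; 0.0537 with all 30 libraries in the fit). Ergic1 was 235 ± 14.6 CPM at 24 h, log2 1.08 ± 0.14 above 22 °C and -0.14 ± 0.14 against 6 h (adjusted p = 0.562 by edgeR).

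Junb (ENSMUSG00000052837) was at 6.87, 7.35, 6.81, 5.59 and 4.22 CPM at 22 °C and at 10.3, 6.94, 14.3, 12.9 and 11.5 after 24 h in BAT. Replicate 2 at 24 h lay within the controls and the other 4 lay above them. The rise in log2 was 0.85 ± 0.23 (adjusted p = 0.0145 by edgeR). Prdx2, a peroxide-removing enzyme gene that overlaps Junb on the opposite strand, had a log2 fold change of -0.14 ± 0.09 (adjusted p = 0.275). Atf3 was at 16.5, 9.18, 4.44, 20.5 and 9.86 CPM after 24 h, a spread that took in the control range through replicate 3. Its log2 fold change was 1.24 ± 0.31 (adjusted p = 0.00799 by edgeR).

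Fosb (ENSMUSG00000003545), a Fos family member known from lasting stimulation in neurons, was counted in few reads. It had 0 to 7 counts per library in BAT at 22 °C and 7 to 44 after 24 h. In CPM the controls were at 0.284, 0.320, 0, 0 and 0.102 and the 24 h libraries at 0.401, 2.05, 0.753, 0.239 and 0.653. The groups overlapped through replicate 4 at 24 h, and the log2 fold change of 2.53 ± 0.90 missed the threshold (adjusted p = 0.0513 by edgeR; 0.0177 by DESeq2, 0.0446 without replicate 2 at 22 °C and 0.0400 without replicate 4 at 24 h).

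Egr1 was at 3.05, 21.8, 7.88, 2.81 and 3.34 CPM at 22 °C, at 5.32, 8.46, 12.2, 15.2 and 4.10 after 6 h and at 5.73, 4.01, 37.3, 20 and 12.3 after 24 h in BAT. Replicate 2 was the highest control and all 3 groups overlapped. The log2 fold change at 24 h was 1.02 ± 0.63 (adjusted p = 0.264 by edgeR), and without replicate 2 at 22 °C it was 1.87 (adjusted p = 0.0341). Fos gave -0.34 ± 0.38, Fosl2 -0.30 ± 0.19, Jun -0.10 ± 0.11 and Jund 0.35 ± 0.15 (adjusted p = 0.0957) on the log2 scale, none of them called. Macrophage markers summed to 156 to 261 CPM at 22 °C and 174 to 423 after 24 h (3 of 12 higher, none at 0 in a whole group), and their part in the members' values was not tested.

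Between 6 h and 24 h in BAT, Fosl2 and Dusp1 went down and Jund went up. These 3 members were called of the 9, while 13.0% of all genes tested were called (6.60% higher and 6.45% lower), and the median log2 fold change was 0.19 over the members and 0.01 over all genes. Fosl2 was at 18.4, 19.2, 21.2, 19.5 and 17.5 CPM after 24 h, all below the lowest library at 6 h, 28.3 CPM. Fosl2 and Dusp1 were 2 members without overlap, as were 9.08% of all genes tested. The log2 fold change of Fosl2 was -0.93 ± 0.19 (adjusted p = 0.00517 by edgeR). Jund (ENSMUSG00000071076) was at 26.0, 17.2, 19.5, 24.1 and 15.2 CPM after 6 h and at 36.7, 24.0, 26.7, 30.7 and 27.4 after 24 h. The groups overlapped through 2 libraries at 6 h, and the log2 fold change was 0.51 ± 0.15 (adjusted p = 0.0288 by edgeR). The call for Jund was lost without replicates 2, 3 or 5 at 6 h or 1 or 4 at 24 h (adjusted p = 0.0548 to 0.0777), and with all 30 libraries in the fit (0.0542).

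In iWAT after 6 h at 6 °C, Jun was the only member called, and it was lower. Of the 9 members none was higher, and 23.0% of the 13689 genes tested were called (12.9% higher and 10.1% lower). The median log2 fold change was -0.45 over the members and -0.03 over all genes. Jun (ENSMUSG00000052684), the AP-1 subunit that gives the family its name, was at 29, 26.9, 30.3, 28.8 and 29 CPM at 22 °C and at 16, 18.1, 20.2, 18.1 and 23.7 after 6 h. The controls lay close together and all 5 cold libraries lay below them. This was a 1.52-fold fall, or -0.60 ± 0.14 on the log2 scale (adjusted p = 0.00901 by edgeR), and 9.35% of all genes tested had groups without overlap in this comparison.

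Markers of other cell types moved in the same comparison. Progenitor and fibroblast markers summed to 2737 to 5235 CPM at 22 °C and 1807 to 3142 after 6 h (5 of 12 lower, none higher). Endothelial markers went from 532 to 938 CPM to 503 to 682 (5 of 12 lower), and macrophage markers from 353 to 881 to 317 to 625 (4 of 12 lower). No marker of these 3 lists was at 0 in a whole group, and their part in the fall of Jun was not tested. Adipocyte markers went the other way, from 24248 to 33394 CPM at 22 °C to 29469 to 44880 after 6 h (3 of 8 higher, none lower). So did brown adipocyte markers, from 182 to 1352 CPM to 827 to 6033 (4 of 11 tested higher, none lower). The part of these lists was not tested either. Without the control library that held muscle RNA, replicate 2, Jun was still called.

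Fosl2 in iWAT was at 25.5, 24.7, 22.8, 21.4 and 25.5 CPM at 22 °C and at 14, 14.5, 22.6, 15.8 and 22.4 after 6 h. Replicates 3 and 5 of the cold group lay within the controls and the other 3 lay below. Its log2 fold change was -0.45 ± 0.16 (adjusted p = 0.0575 by edgeR), while DESeq2 called it (adjusted p = 0.0452). Dusp1 gave 0.48 ± 0.22 (adjusted p = 0.125; 0.0466 with all 30 libraries in the fit), with 22.4 to 29.1 CPM at 22 °C and 24.9 to 51.3 after 6 h. Atf3 gave 0.67 ± 0.42, Egr1 -0.83 ± 0.53, Fos -0.50 ± 0.74, Fosb -0.67 ± 1.12, Junb -0.03 ± 0.26 and Jund 0.05 ± 0.17 on the log2 scale, none of them called.

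After 24 h at 6 °C no member was called in iWAT by edgeR, although 23.0% of all genes tested were (12.8% higher and 10.1% lower). No member was without overlap, against 16.7% of all genes. At an unadjusted p under 0.05 there were 3 members (Fos, Atf3 and Dusp1) and 37.0% of all genes, and DESeq2 called 1, Atf3, and 25.4% of all genes. The members' median log2 fold change was 0.45 and that of all genes -0.04. Atf3 was at 2.53, 3.87, 4.82, 2.84 and 1.24 CPM at 22 °C and at 9.11, 3.57, 3.24, 8.55 and 9.53 after 24 h. Replicates 1, 4 and 5 lay above all controls and replicates 2 and 3 among them. The log2 fold change was 1.13 ± 0.42 (adjusted p = 0.0633 by edgeR, 0.0226 by DESeq2). Dusp1 was at 30.5, 33.9, 23.6, 41.5 and 57.3 CPM, against 29.1, 22.4, 26.2, 23.3 and 26.7 at 22 °C. Replicate 3 alone lay within the controls, and the log2 fold change was 0.53 ± 0.22 (adjusted p = 0.0941 by edgeR; 0.0387 without that library). Ergic1 went from 69.3 ± 8.69 to 105 ± 18.6 CPM in the same libraries (log2 0.58 ± 0.14, adjusted p = 0.00866).

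The other large values in iWAT at 24 h came from 1 library. Fos was at 2.25, 1.24, 1.81, 2.04 and 23.6 CPM, against 1.88, 3.35, 2.74, 1.36 and 0.814 at 22 °C. Fosb was at 0.0577, 0.350, 0.112, 0.340 and 8.46 CPM, and Egr1 at 3.20, 7.16, 6.29, 8.23 and 30.2. In all 3 genes the high value was that of replicate 5, and the other 4 libraries lay within or close to the control range. The log2 fold change of Fos was 1.59 ± 0.73 with this library (adjusted p = 0.123 by edgeR) and -0.16 without it. For Fosb it was 2.15 ± 1.04 with and -0.93 without, and for Egr1 0.13 ± 0.52 with and -0.69 without. Replicate 5 was also the highest of its group in Jun (38.1 CPM), Junb (8.89), Jund (37.9), Atf3 (9.53) and Dusp1 (57.3), but not in Fosl2 (20.8, with others at 14.3 to 25).

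Between 6 h and 24 h in iWAT no member was called by edgeR, and of all genes 0.00731% were. All 9 overlapped, while 1.78% of all genes did not. At an unadjusted p under 0.05 there were 3 members, Fos, Fosb and Jun, and 9.87% of all genes, and DESeq2 called Jun and 0.82% of all genes. The log2 fold change of Fos was 2.08 ± 0.75, and 0.33 to 2.58 when each library was left out in turn. That of Fosb was 2.81 ± 1.11, and -0.26 to 3.30. Jun was at 24.1, 26.9, 20.9, 30.5 and 38.1 CPM after 24 h, against 16 to 23.7 after 6 h and 26.9 to 30.3 at 22 °C. The log2 fold change from 6 h to 24 h was 0.55 ± 0.14 (adjusted p = 0.196 by edgeR, 0.0380 by DESeq2).

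The cold responses of the depots differed in Fosl2 at 6 h. The difference of the log2 fold changes, BAT minus iWAT, was 1.06 ± 0.26 (adjusted p = 0.0124 by edgeR's interaction test), with 0.62 in BAT and -0.45 in iWAT. It was past the threshold under every alternative tried. This was 1 of the 9 members, and 9.40% of all genes tested were called for such a difference at 6 h (3.38% higher and 6.03% lower). Dusp1 had a difference of 0.73 ± 0.27 (adjusted p = 0.0781) and Jun one of 0.49 ± 0.18 (adjusted p = 0.0827), both short of the threshold. Dusp1 was called with the replicate block (adjusted p = 0.0326), by DESeq2 (0.0476), on log2(FPKM + 1) by limma (0.0139) and on log2(FPKM + 0.1) (0.0174), and without replicate 5 of iWAT (0.0318) or replicate 1 of BAT (0.0401) at 6 h. Jun was called on both FPKM scales by limma (adjusted p = 0.0148 and 0.0174), and without replicate 5 of iWAT (0.0464) or replicate 4 of BAT (0.0412) at 6 h by edgeR. At 24 h no member was called by edgeR or DESeq2, while edgeR called 7.81% of all genes (2.96% higher and 4.85% lower) and DESeq2 11.7%. At an unadjusted p under 0.05 there was 1 member, Fos, and 23.3% of all genes. The log2 difference of Fos was -1.93 ± 0.88, and it ranged from -2.19 to -0.18 when each library was left out in turn.

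Set against each other at the same state, the depots differed in most genes, and the members are read against that. At 22 °C edgeR called 3 of 9 members with 66.9% of all 14089 genes called (32.4% higher in BAT and 34.5% lower). Dusp1 and Jun did not overlap between the depots, as was so for 52.7% of all genes. Dusp1 was higher in BAT (log2 0.76 ± 0.19, adjusted p = 0.000838) and so was Jun (0.36 ± 0.13, adjusted p = 0.0129), while Jund was lower (-0.42 ± 0.17, adjusted p = 0.0348). The call for Jund was lost without replicate 1 or 4 of iWAT or 2 or 5 of BAT (adjusted p = 0.0711 to 0.113), and that for Jun with upper-quartile factors (0.17, adjusted p = 0.226). On log2(FPKM + 1), which is not scaled by TMM, limma called 1966 genes higher and 9302 lower (edgeR 4570 and 4857), the median of all genes was -0.34 and Jun was at -0.22, so its sign turned while it stayed above that median. Dusp1 was at 0.14 on that scale and was not called by limma (adjusted p = 0.458). Ergic1, which overlaps Dusp1, also had higher mean CPM in BAT than in iWAT. The means were 110 and 69.3 at 22 °C, 257 and 92.6 after 6 h, and 235 and 105 after 24 h. Its part in the depot differences of Dusp1, at any state or in the cold response, was not tested.

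After 6 h, 6 of the 9 members were called between the depots, with 66.2% of all genes called (32.6% higher and 33.7% lower). Dusp1 was at 75.6 to 113 CPM in BAT and 24.9 to 51.3 in iWAT, without overlap (log2 1.5 ± 0.19, adjusted p = 9.29e-08 by edgeR). Fosl2 (1.02 ± 0.19), Jun (0.85 ± 0.13) and Atf3 (1.10 ± 0.39) were also higher in BAT without overlap on the log2 scale, and Junb was higher with overlap (0.99 ± 0.26). Atf3 was not called on log2(FPKM + 1) by limma (0.63, adjusted p = 0.0536). Jund was lower in BAT (-0.64 ± 0.17, adjusted p = 0.002 by edgeR). Groups without overlap were found for 45.7% of all genes in this comparison.

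After 24 h, 4 of the 9 members were called between the depots, with 63.6% of all genes called (31.6% higher and 32.0% lower). All 9 overlapped, while 47.0% of all genes did not. Dusp1 (log2 0.89 ± 0.19), Junb (0.85 ± 0.26) and Jun (0.32 ± 0.13) were higher in BAT and Fos was lower (-1.94 ± 0.63, adjusted p = 0.00901 by edgeR). The call for Fos rested on replicate 5 of iWAT: without it the log2 difference was -0.19 (adjusted p = 0.725). Junb was not called on log2(FPKM + 1) by limma (0.31, adjusted p = 0.155). Jun was lost under several alternatives, among them upper-quartile factors (0.19, adjusted p = 0.200), and its sign turned on log2(FPKM + 1) (-0.09, with the median of all genes at -0.23).

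Whether libraries high in Fos were also high in the other members was asked over the 15 libraries of each tissue, after subtracting the group's mean of log2(CPM + 1). In iWAT Fos went with Egr1 (Pearson r = 0.75, adjusted p = 0.0269; Spearman rho = 0.70, adjusted p = 0.0378; permutation tests, 16 relations). Without the 2 libraries farthest from the median of Fos, r was 0.59. With Fosb r was 0.84 (adjusted p = 0.0356, permutation) and rho 0.61 (adjusted p = 0.101), and r was 0.51 without those 2 libraries, 1 of which was replicate 5 at 24 h. In BAT Fos went with Dusp1 (r = 0.67, adjusted p = 0.0356; rho = 0.79, adjusted p = 0.0133; permutation tests), and r was 0.58 without the 2 farthest. With Egr1 in BAT r was 0.63 (adjusted p = 0.0429, permutation), rho 0.50 (adjusted p = 0.193) and r 0.39 without the 2 farthest. In the remaining 12 relations neither adjusted p was under 0.05. The permutations shuffled all 15 libraries of a tissue freely. They did not allow for the group means subtracted before, so these p-values may be too small.

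**Figure D4:**
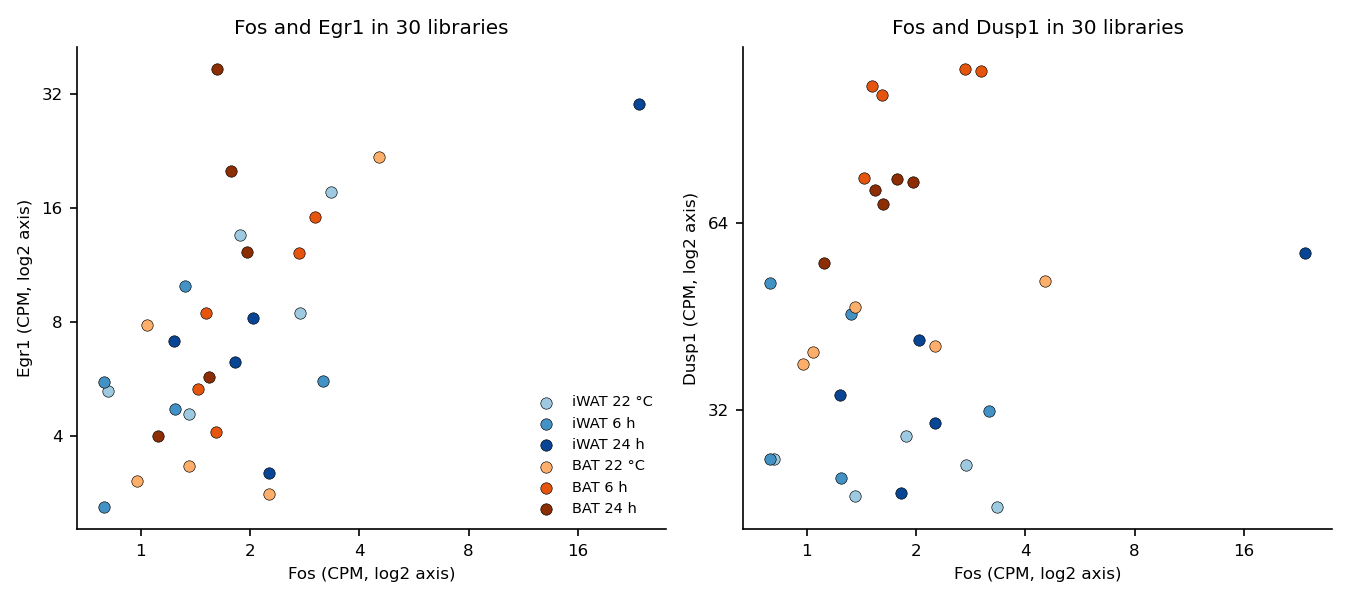
Each point is a library, coloured by group (30 in all), with Fos on the horizontal axis and Egr1 (left) or Dusp1 (right) on the vertical axis, all in CPM on log2 axes. The point at the far right is iWAT replicate 5 after 24 h, with 23.6 CPM of Fos, 30.2 of Egr1 and 57.3 of Dusp1, and the BAT libraries after 6 h hold the highest Dusp1 values at 1.44 to 3.01 CPM of Fos.

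By the same measure of likeness, the gene outside the members most like Dusp1 was Flacc1 in iWAT (r = 0.88 over 15 libraries, 12099 genes compared) and Nynrin in BAT (r = 0.85, 11730 genes). Mal2, Cops2, Ergic1 and Cep83 came next in iWAT (0.87 to 0.86), and Mlxip, Crlf2, Tpd52 and Zfp711 in BAT (0.83 to 0.78). Ergic1 lies over Dusp1 on the opposite strand, so its likeness may come in part from reads that cannot be told apart, which was not tested. For Fos the first was Prps1 in iWAT (0.78, and 0.50 without replicate 5 at 24 h) and Klhl22 in BAT (0.82). A gene with no symbol, Mest and Klf14 were among those that followed in iWAT (0.75, 0.75 and 0.74, and 0.62, 0.52 and 0.40 without that library), and Nabp1, Mras, Kri1 and Zbtb49 in BAT. All of these were picked as the highest of the genes compared, and none was tested.

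Other genes of the pathway were read from lists, in each case by edgeR. The counts in each list are read against all genes tested, of which 12.5% were higher and 10.2% lower in BAT after 6 h, 12.8% and 10.4% in BAT after 24 h, 12.9% and 10.1% in iWAT after 6 h, and 12.8% and 10.1% in iWAT after 24 h, with median log2 fold changes of -0.01, -0.01, -0.03 and -0.04. In the same order, the median over the genes tested was 0.02, -0.09, -0.05 and 0.20 for the other immediate early transcription factors, 0.20, 0.26, -0.01 and 0.12 for the signalling and growth genes, and 0.21, -0.22, 0.04 and 0.17 for the MAP kinase phosphatases. It was 0.01, 0.09, 0.08 and 0.08 for the MAP kinases and their kinases, and 0.16, 0.26, -0.03 and 0.17 for the dimer partners. For the factors that bind serum and cAMP response elements, listed with cofactors, it was -0.01, -0.11, -0.06 and -0.11. Among the other immediate early transcription factors, 18 of 20 were tested. In BAT 3 rose and 1 fell after 6 h, close to the shares of all genes, where Nr4a3, an orphan nuclear receptor, went from 10.6 ± 1.07 to 37.7 ± 8.44 CPM (log2 1.81 ± 0.14) and Maff, a small Maf factor, from 4.44 ± 1.44 to 14.5 ± 2.38 (1.69 ± 0.20). Nr4a1, a relative of Nr4a3, fell from 101 ± 24.2 to 48.8 ± 29.5 CPM (-1.06 ± 0.35). After 24 h 2 rose and 5 fell in BAT, with Nr4a1 at -2.17 ± 0.36, Maff at 1.83 ± 0.20 and Klf2, a factor of endothelial cells, at -1.05 ± 0.18 on the log2 scale. In iWAT 1 rose and 5 fell after 6 h, and 4 rose and 1 fell after 24 h. Nr4a3 rose at both times (1.95 ± 0.56 and 2.71 ± 0.56), while Egr3 (-1.13 ± 0.38) and Ier5 (-0.76 ± 0.22) fell at 6 h and Maff (0.93 ± 0.21) and Csrnp1 (0.83 ± 0.23) rose at 24 h.

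Of the other immediate early genes of signalling and growth, 19 of 20 were tested in BAT. There 7 rose and 3 fell after 6 h, and 8 rose and none fell after 24 h. Arc, best known from synapses, was at 0.990 ± 0.198 CPM at 22 °C, 4.72 ± 1.80 after 6 h (log2 2.24 ± 0.26) and 4.70 ± 1.21 after 24 h (2.23 ± 0.26). The matrix protein gene Thbs1 rose at both times (1.17 ± 0.25 and 1.02 ± 0.25), Ier3 fell at 6 h (-1.27 ± 0.35) and Ccn2 rose at 24 h (1.19 ± 0.23). In iWAT, where all 20 were tested, 3 rose and 1 fell after 6 h and 5 rose and 1 fell after 24 h. Trib1, a pseudokinase (0.70 ± 0.18 and 0.82 ± 0.18), and the stress sensor gene Gadd45g (0.99 ± 0.27 and 0.88 ± 0.27) rose at both times. Plk2 fell at 6 h (-0.85 ± 0.18) and Gadd45b rose at 24 h (0.81 ± 0.26).

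The relatives of Dusp1 are the other MAP kinase phosphatases. In BAT 2 of 7 tested rose after 6 h, Dusp6, which acts on ERK (log2 0.71 ± 0.21), and Dusp16, which acts on JNK and p38 (0.58 ± 0.13), and none was called after 24 h. In iWAT Dusp7 fell at both times (-0.43 ± 0.13 and -0.54 ± 0.13), and Dusp6 (0.89 ± 0.29) and Dusp8 (0.87 ± 0.29) were among the 3 of 9 that rose after 24 h. Of the MAP kinases and their kinases, 3 of 16 rose and 2 fell in BAT at each time, close to the shares of all genes. Named at 6 h were Map2k3 (0.32 ± 0.07), Map2k4 (0.27 ± 0.07) and Mapk12 (-0.48 ± 0.13), and at 24 h Map2k6 (-1.77 ± 0.56), Mapk12 (-0.58 ± 0.13) and Map2k5 (0.28 ± 0.08). Map2k6 was low, at 1.62 ± 1.01 CPM at 22 °C and 0.473 ± 0.355 after 24 h. Skeletal muscle markers varied widely between BAT libraries, and the part of muscle in these values was not tested. In iWAT 2 of 15 rose and 3 fell after 6 h, and 1 rose and 3 fell after 24 h. Mapk11, which codes for a p38 kinase, fell at both times (-0.76 ± 0.16 and -0.77 ± 0.16), as did Mapk7 (-0.58 ± 0.14 and -0.56 ± 0.14). Map2k2 rose at 6 h (0.43 ± 0.13) and Mapk12 fell at 24 h (-0.51 ± 0.12).

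Among other dimer partners of Fos and Jun proteins, 5 of 13 tested rose in BAT after 6 h and none fell, and after 24 h 5 rose and 1 fell. Atf5, a factor of the mitochondrial stress response, rose from 123 ± 16.2 CPM to 195 ± 37.2 after 6 h (log2 0.66 ± 0.14) and 171 ± 34.2 after 24 h (0.46 ± 0.14). Jdp2, a repressor that binds AP-1 sites, rose at both times (0.50 ± 0.16 and 0.49 ± 0.16). Batf2 was called at 24 h (2.46 ± 0.81), at low and uneven levels. It was at 0.378 ± 0.161 CPM at 22 °C and 2.06 ± 3.46 after 24 h, an SD larger than the mean. In iWAT 2 of 15 rose after 6 h, Atf5 (0.70 ± 0.16) and Atf2 (0.38 ± 0.13), and after 24 h 2 rose, Atf5 (1.22 ± 0.17) and Atf2 (0.45 ± 0.13), and Maf fell (-0.47 ± 0.16). Factors that bind serum and cAMP response elements were listed together with cofactors, among them the Crtc, Mrtf and Nab genes. Of this mixed list 15 were tested in each tissue. None rose in the 4 cold comparisons, where 12.5% to 12.9% of all genes did. In iWAT 2 fell at each time, Nab2, a corepressor of Egr proteins (-0.65 ± 0.19 and -0.74 ± 0.19), and Elk3 (-0.48 ± 0.13 and -0.45 ± 0.13). In BAT Mrtfb fell at both times (-0.39 ± 0.12 and -0.41 ± 0.12) and Elk4 at 24 h (-0.31 ± 0.07).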

How the data were processed

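The deposited counts are whole reads per gene, and the authors made them with HISAT2, HTSeq and the assembly GRCm39, per the submitters' processing notes, which give no versions. The deposited FPKM equal count over library total and gene length, which was tested on the values. Of the 21652 genes, 495 had no symbol and could not be matched as members. Genes were kept by filterByExpr (minimum count 10), scaled by TMM and tested with edgeR 4.0.16 (R 4.3.3) by the quasi-likelihood F test, with Benjamini-Hochberg adjustment and a threshold of 0.05. Each depot's 15 libraries were fitted together, and depots were compared in a fit of all 30. Other settings tried were upper-quartile and RLE factors, DESeq2 1.42.0, other filters, limma 3.58.1 on log2(FPKM + 1) and log2(FPKM + 0.1), a replicate block, other sets of libraries and leaving out each library. The fit was also tested on simulated data. All 9 members were named. From each pathway list, up to 3 called genes of largest log2 fold change were named in each cold comparison against 22 °C, and the 5 genes most like Fos and Dusp1 in each tissue, among genes with a mean of 1 CPM or more. Some genes that this rule names are not reported here. The members and lists were chosen with earlier results of these data known. Pairs of libraries within a group, 60 in all, differed by more than counting noise (chi-square per degree of freedom 14 to 181).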

Additional observations from a re-analysis of the deposited data

Results flagged for a closer look

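In each of 54 sets, a member in a group of 5 libraries, the gap between an extreme library and its nearest neighbour was set against the range of the group. For values that follow a normal distribution, chance alone sets a library apart in about 1 in 20 such sets, and 7 were found here. Whether CPM follow it was not tested, and 3 of the 7 are the same library, so this count cannot show an excess over chance. In 3 genes, Fos (23.6 CPM), Fosb (8.46) and Egr1 (30.2), the same library stood far above its group, iWAT replicate 5 after 24 h, where the other 4 libraries held 1.24 to 2.25, 0.0577 to 0.350 and 3.20 to 8.23 CPM. In iWAT after 6 h, replicate 2 held 3.18 CPM of Fos, with the others at 0.792 to 1.33. In BAT at 22 °C, replicate 2 held 21.8 CPM of Egr1, with the others at 2.81 to 7.88, and it also held the most Fos of its group, 4.52 CPM. Fosb was at 2.05 CPM in BAT replicate 2 after 24 h, above 0.239 to 0.753 in the rest. Dusp1 was low in BAT replicate 1 after 6 h, 75.6 CPM against 103 to 113.

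The response of Fosl2 to 6 h of cold differed between the depots. The log2 difference, BAT minus iWAT, was 1.06 (adjusted p = 0.0124 by edgeR's interaction test).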

How the results depend on the processing

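Of 1170 log2 fold changes of members recomputed leaving out each library in turn, 63 changed sign, 22 lost and 19 gained a call, and of 981 under the other settings 36, 13 and 26 did. The cause was not tested. The number of members called in iWAT after 6 h was 1, and 2 under upper-quartile factors, DESeq2, both FPKM scales and all 30 libraries (1 to 2 leaving out a library). In iWAT after 24 h it was 0, and 1 with DESeq2 or the 10 libraries compared and 2 with all 30 (0 to 2 leaving out a library). From 6 h to 24 h it was 0 in iWAT, and 1 with DESeq2 or all 30 libraries, and 3 in BAT, and 1 with all 30. Leaving out a library gave 1 to 4 members in BAT at 6 h and 3 to 5 at 24 h. The difference between the depots at 6 h was called for 1 member, and for 2 with the replicate block or DESeq2 and 3 on both FPKM scales (1 to 3 leaving out a library).

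Signs turned as follows, on the log2 scale. In iWAT after 6 h Jund was at -0.018 (upper quartile), -0.177 (FPKM + 1), -0.185 (FPKM + 0.1) and -0.0039 without both iWAT libraries that stand apart (replicate 2 at 22 °C and replicate 5 at 24 h, a setting chosen after seeing the data), and Junb at 0.091 without both. After 24 h Jund was at -0.010, -0.092, -0.095 and -0.079 in the same order, Egr1 at -0.155 and -0.249 on the FPKM scales and -0.376 without both, and Fosb at -0.983 without both. From 6 h to 24 h Jund was at -0.0049 (RLE), -0.0046 (DESeq2), -0.0045 (all 30) and -0.075 without both, where Fosb was at -0.260 and Dusp1 at -0.153. In BAT after 6 h Fos was at -0.016 (upper quartile). Between the depots Jun was at -0.222 and -0.241 at 22 °C and -0.093 and -0.101 at 24 h, and Junb at -0.102 and -0.137 at 22 °C, on the FPKM scales, and without both libraries Fos was at 0.241 (22 °C) and Fosb at 1.87 (24 h). In the difference of cold responses at 24 h Fosl2 was at 0.10 and 0.13 and Jun at 0.129 and 0.140 on the FPKM scales, Fosb at -0.077 (FPKM + 1), and Jun at 0.013 (upper quartile) and 0.110 (without both).

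Leaving out a library gave these ranges where a sign turned. In iWAT at 6 h Junb ranged from -0.225 to 0.117 and Jund from -0.077 to 0.156. In iWAT at 24 h Fos ranged from -0.164 to 1.85, Fosb from -0.927 to 2.51, Egr1 from -0.688 to 0.445, Jun from -0.189 to 0.034 and Jund from -0.030 to 0.162. From 6 h to 24 h in iWAT Fosb ranged from -0.259 to 3.30, Jund from -0.095 to 0.129 and Dusp1 from -0.153 to 0.219. In BAT at 6 h Fos ranged from -0.162 to 0.541, Fosb from -0.202 to 1.40 and Egr1 from -0.058 to 1.06, and at 24 h Fos from -0.520 to 0.182. From 6 h to 24 h in BAT Jun ranged from -0.075 to 0.056 and Atf3 from -0.097 to 0.403. Between the depots Fos (-0.529 to 0.238) and Fosl2 (-0.267 to 0.106) turned at 22 °C, Fosb (-1.12 to 0.428) at 6 h, and Fosb (-1.87 to 1.87) and Egr1 (-0.062 to 1.35) at 24 h. In the difference of cold responses at 24 h Fosb (-0.281 to 3.45), Fosl2 (-0.289 to 0.083), Jun (-0.139 to 0.086), Atf3 (-0.177 to 0.309) and Dusp1 (-0.0020 to 0.332) turned.

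Deviations of same-numbered libraries had r above 0.1 in 12 of 30 pairs within a tissue (median 0.054) and in 8 of 15 pairs of BAT and iWAT at the same state (median 0.113, against 11 of 60 pairs and a median of -0.025 for different numbers). Not every pair was above 0.1, so the numbers were not taken as pairs. This rule cannot decide whether equal numbers are the same mouse, because single pairs vary widely, and the labels do not say. If they are, the main tests between the depots left that pairing out. With the replicate block, Jund was called in BAT after 24 h (adjusted p = 0.00982 by edgeR), and Egr1 in iWAT after 24 h was at -0.215. The FPKM + 1 scale moved the median of all genes to -0.15 in iWAT after 6 h, and turned the calls there from 1769 higher and 1379 lower to 575 and 4324 (1250 and 2074 with upper-quartile factors). In the same order of FPKM + 1 against edgeR, higher and lower calls were 1035 and 3128 against 1757 and 1388 in iWAT after 24 h, 1286 and 1581 against 1634 and 1333 in BAT after 6 h, 1143 and 524 against 864 and 844 from 6 h to 24 h in BAT, 2350 and 7276 against 4586 and 4744 between the depots at 6 h, 2134 and 7800 against 4452 and 4506 at 24 h, and 2205 and 401 against 476 and 849 and 1571 and 385 against 417 and 683 for the differences of responses at 6 h and 24 h. Fosb had 0 to 44 counts in all BAT libraries, and its differences are limited by depth.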
